A study of Rattus norvegicus with 10 samples.

Results

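The 6 Hoxd genes analysed here, Hoxd10, Hoxd9, Hoxd8, Hoxd4, Hoxd3 and Hoxd1, were chosen by their Ensembl identifiers from 32883 genes measured by RNA sequencing in rat primary cortical neuron cultures. They were picked because they were known to rise in these libraries, so their changes with the drugs are given as a description, without p-values. The cultures were prepared from the cortex of newborn Wistar rats, hold glia as well as neurons, and were treated after 2 weeks in vitro with an inhibitor of histone deacetylases (HDACs), which take acetyl groups off histone tails. The labels name no altered allele, and the drugs were not washed out. The 4 groups were 3 libraries with trichostatin A (TSA, 100 nM, 19 h), 3 untreated time-matched controls of these, 2 libraries with sodium butyrate (NaB, 24 h) and 2 untreated controls of these. The dose of NaB is 5 µM in the sample labels and 5 mM in the methods of the study. The NaB libraries belonged to another project and were set against the controls of that project, so that drug, incubation time and project changed together. Each library held between 26070908 and 27649249 reads assigned to genes. All values are normalized counts, for which the authors scaled the reads in each library by a single size factor, and 1 read is worth close to 1 normalized count. A limit of 3 reads, above which a gene was taken as detected, corresponded to 0.109 to 0.115 CPM. Here 1 CPM is 1 read in 1000000 reads.

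Hox genes encode homeodomain transcription factors that give cells their position along the axis from head to tail. They lie in clusters in which the order of the genes follows the order of their expression domains, from genes of the hindbrain and neck to genes of the lower trunk, limbs and tail. In the nervous system they are known from the hindbrain and spinal cord, and in the cortex the clusters are usually kept silent by Polycomb group proteins, which repress chromatin. In the RefSeq annotation of rat (GRCr8), the Hoxd cluster lies on chromosome 3 and has 9 genes in the order Hoxd13 to Hoxd1. The 6 genes described here are its last 6 in that order, and Hoxd11, Hoxd12 and Hoxd13 were not analysed here by name, since no identifier could be paired with them.

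Because the 6 genes rose together, their promoters were compared, using RefSeq sequences of GRCr8 (250 bases before to 50 bases after each start, 33469 promoters, 6 of 6 genes matched). All 6 held more CG dinucleotides than the median promoter, 12 to 49 against a median of 7 with quartiles of 3 and 19. Hoxd8 held 49, more than 99.1% of all promoters, while Hoxd4 with 12 and Hoxd3 with 19 did not exceed the upper quartile. Of the motifs searched on both strands, CCAAT was found in 4 of 6 (37.5% of all promoters), GGGCGG in 4 of 6 (33.1%), AGGTCA in 2 of 6 (16.2%), TATAAA in 0 of 6 (14.2%) and TGATTGAT in 0 of 6 (0.774%). The 100 bases before the start are shown for 3 genes, which span the range of CG dinucleotides in that window: 21 for Hoxd8, 9 for Hoxd9 and 3 for Hoxd3. The plus strand is printed 5′ to 3′, and capitals mark CCAAT or its reverse complement ATTGG.
Hoxd9, chr3:80007906-80008005: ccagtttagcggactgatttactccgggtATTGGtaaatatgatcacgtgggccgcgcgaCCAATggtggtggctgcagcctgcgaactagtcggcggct
Hoxd8, chr3:80015123-80015222: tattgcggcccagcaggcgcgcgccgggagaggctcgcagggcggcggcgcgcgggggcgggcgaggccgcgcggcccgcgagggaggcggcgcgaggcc
Hoxd3, chr3:80046026-80046125: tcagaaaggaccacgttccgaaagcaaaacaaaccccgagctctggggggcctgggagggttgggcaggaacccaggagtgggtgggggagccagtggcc
The pair of CCAAT matches of Hoxd9 lie on opposite strands, at positions -71 and -40 from the start, and the windows of Hoxd8 and Hoxd3 hold none. A match is a description of letters and not a sign that a factor was bound, and the starts are those of the annotation, not starts observed in these cultures.

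All 6 genes were at or near 0 in the untreated cultures and were counted in every treated library. Summed over the 6 genes, the normalized counts were 1.05, 1.03 and 0 in controls 1, 2 and 3 for TSA, and 179, 92.3 and 192 in the TSA libraries 1, 2 and 3. In the NaB project they were 4.14 in control 1 and 2.09 in control 2, and 190 and 226 in the NaB libraries. The group means were 155 ± 54.4 (SD, n = 3) with TSA against 0.695 ± 0.602 (SD, n = 3), and 208 ± 25.2 (SD, n = 2) with NaB against 3.11 ± 1.45 (SD, n = 2). Even so, the sum reached only 3.69 to 7.59 CPM with TSA and 7.33 and 8.72 with NaB. These are bulk libraries, in which a few cells with much of a transcript and many cells with little of it cannot be told apart.

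For each of the 6 genes, every treated library lay above every control library of its project, as was the case for 33.1% of all 15717 tested genes with TSA and for 40.2% with NaB. In the comparison with TSA, all 6 genes had at most 3 reads in every control library, and 5 of them had more than 3 reads in every TSA library (5.74% of the 7677 genes that were as low in these controls). The exception was Hoxd3, with 2 reads in TSA library 2. In the NaB project, 5 genes were at or under 3 reads in both controls and all 5 exceeded 3 reads in both NaB libraries (8.83% of 7745 genes). The gene left out was Hoxd9, with 4 reads in 1 control. By limma on log2(normalized count + 1), with a Benjamini-Hochberg adjusted p below 0.05 and a log2 change of at least 0.5, 5 of the 6 genes could be tested and all 5 were called up with both drugs, beside 22.5% of all tested genes with TSA and 21.2% with NaB. Since the genes were chosen for these changes, nothing is read from these counts.

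At the posterior end of the group, Hoxd10 is known from the lumbar spinal cord, where it takes part in the specification of motor neurons of the hindlimb. Hoxd10 (ENSRNOG00000001581) had no read in any of the 5 controls. Its normalized counts were 25.3, 9.95 and 26.2 in TSA libraries 1, 2 and 3 and 18.9 and 35.7 in NaB libraries 1 and 2. The means were 20.5 ± 9.15 (SD, n = 3) with TSA and 27.3 ± 11.9 (SD, n = 2) with NaB, at least 6.51-fold and at least 8.75-fold higher than a control level set at 3 reads per library. The TSA and NaB libraries overlapped.

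Hoxd9, which acts with its paralogs in the patterning of the lower trunk and the limbs, received the most reads of the 6 genes in every treated library. Its normalized counts (ENSRNOG00000001580) were 0 in the 3 controls and 73.1, 41.6 and 82.6 in the 3 TSA libraries. In the NaB project 1 control was at 4.14 and the other at 0, and the NaB libraries were at 86.9 and 81.0. Its mean of 65.8 ± 21.5 (SD, n = 3) with TSA was at least 20.9-fold higher than 3 reads per library. With NaB, 176 reads stood against 4, and all 4 control reads lay in 1 library. Scaled by the size factors of the libraries, the ratio was 40.4 (95% exact counting interval 15.5 to 149.9). Counting intervals cover counting error only and not the spread between cultures.

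Hoxd8 belongs to the central part of the cluster. The TSA and NaB libraries did not overlap for this gene alone (1 of 6 genes), beside 42.3% of all tested genes, so that such a separation was common in the table. Hoxd8 (ENSRNOG00000042480) had no read in the controls for TSA and normalized counts of 17.8, 8.14 and 10.7 with TSA, a mean of 12.2 ± 5.02 (SD, n = 3) that was at least 3.88-fold higher. With NaB its normalized counts were 37.8 and 32.8 against 0 and 1.04, a mean of 35.3 ± 3.55 (SD, n = 2). From 74 reads against 1, the ratio scaled by the size factors was 67.9 (95% exact counting interval 11.8 to 2719). Both NaB libraries were thus higher than the highest TSA library. The bound for TSA and the ratio for NaB are set against different control levels and are not to be compared.

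Hoxd4, Hoxd3 and Hoxd1 belong to the anterior part of the cluster. Hoxd4 is expressed in the hindbrain and neck of the embryo and is known as a target of retinoic acid. Hoxd4 (ENSRNOG00000001578) had normalized counts of 1.05, 1.03 and 0 in the controls for TSA and of 19.7, 7.24 and 35.9 with TSA. It was at 0 in both controls for NaB and at 15.1 and 35.7 with NaB. The ratio with TSA, scaled by the size factors, was 29.4 (66 reads against 2, 95% exact counting interval 7.84 to 248). With NaB, Hoxd4 was at least 8.14-fold higher. Its replicates were spread widely, with means of 21.0 ± 14.4 (SD, n = 3) and 25.4 ± 14.5 (SD, n = 2), and the drugs overlapped.

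Hoxd3, which takes part in the formation of the uppermost vertebrae, had the fewest reads and was below the filter on low counts. Hoxd3 (ENSRNOG00000001577) was at 0 in all 5 controls, at normalized counts of 9.38, 1.81 and 9.72 with TSA and at 5.67 and 7.71 with NaB. The increase was at least 2.21-fold with TSA and at least 2.15-fold with NaB. These bounds are low because 3 reads are close to what was counted in the treated libraries, 22 reads in the 3 TSA libraries and 14 in the 2 NaB libraries.

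Hoxd1, at the anterior end, is known in mice from sensory neurons that detect painful stimuli. Hoxd1 (ENSRNOG00000001572) had no read in the controls for TSA and normalized counts of 33.8, 23.5 and 27.2 with TSA. In the NaB project it was at 0 and 1.04 in the controls and at 25.5 and 32.8 with NaB. Its mean of 28.2 ± 5.19 (SD, n = 3) with TSA was at least 8.94-fold higher. With NaB, 61 reads stood against 1, a ratio of 56.0 after scaling by the size factors (95% exact counting interval 9.68 to 2248). The means of Hoxd1 with the drugs, 28.2 and 29.1, were less than the SD of either group apart. Normalized counts are not divided by gene length, so the order of the 6 genes by counts is not an order of transcript levels.

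**Figure D1:**
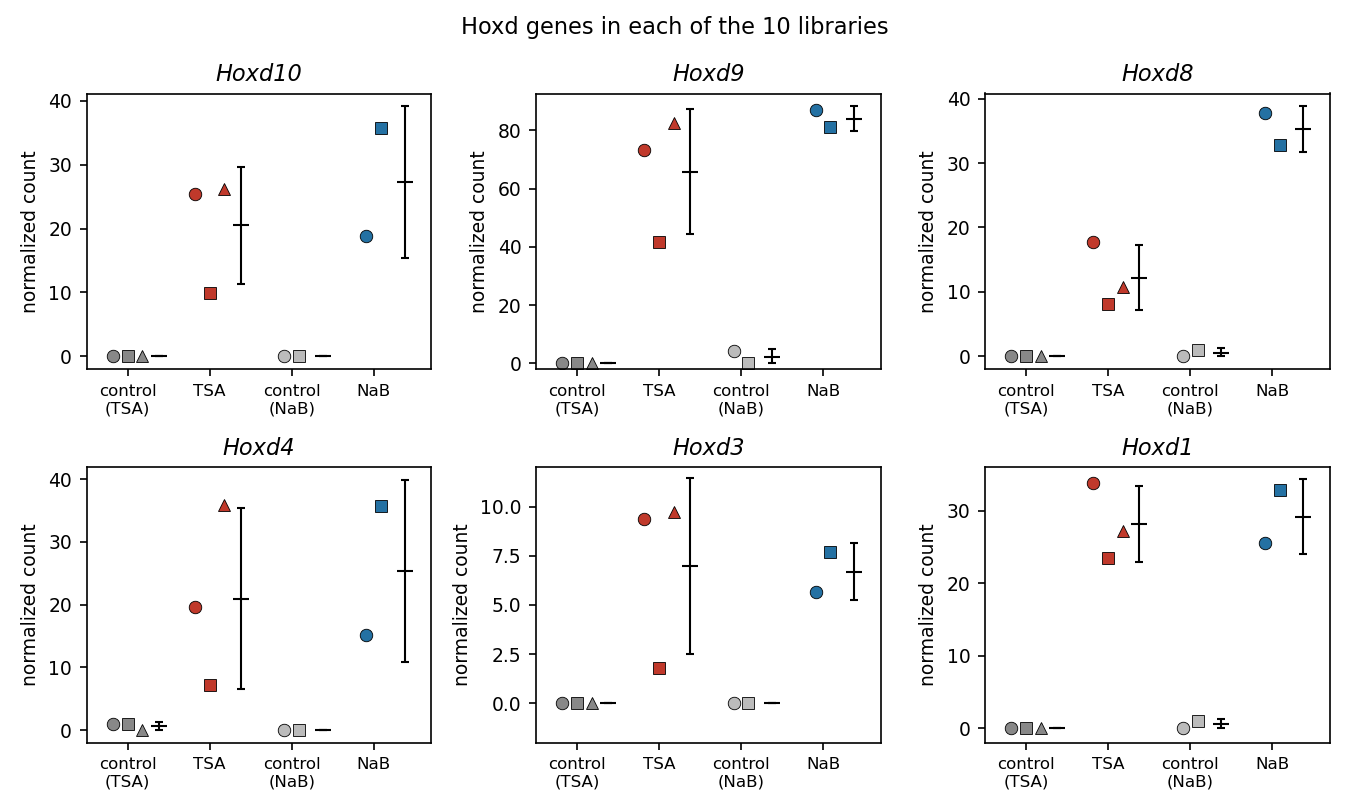
Normalized counts (linear axes that differ between panels) of the 6 Hoxd genes in the 10 libraries. Circles, squares and triangles mark replicates 1, 2 and 3, and bars show the group mean ± SD. Controls lie at 0 to 4.14, treated libraries lie above them in each panel, TSA replicate 2 is the lowest TSA library in all 6 panels, and for Hoxd8 both NaB libraries lie above the TSA libraries.

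What the genes shared in the spread between TSA libraries was the low place of library 2. Libraries 1 and 3 had no common order, as Hoxd8 and Hoxd1 were higher in library 1 and the other genes in library 3. TSA library 2 was the lowest of the 3 for 6 of 6 genes, and its Hoxd sum was 49.7% of the mean of the other 2. The median log2 difference of the 6 genes from the mean of the other libraries was -1.09. Among the other 3535 genes called up with TSA, library 2 was the lowest for 50.3%, with a median log2 difference of -0.09, and over all tested genes it was the lowest for 39.4%, with a median of 0.0027. Its total of 27606793 reads was the highest of the TSA libraries. Whether the extent of the response, the composition of the culture or the handling differed for this library was not tested. Without it, the mean Hoxd sum with TSA was 186 in place of 155, and without library 1 or 3 it was 142 or 136. The 2 NaB libraries had no such order, as library 1 was the higher for Hoxd9 and Hoxd8 and library 2 for the other 4 genes.

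The make-up of the Hoxd reads, that is, the share of each gene in the reads of the 6 genes within a library, was then set side by side for the drugs. TSA library 2, with the lowest Hoxd sum, had the highest share of Hoxd1 (25.5%) and the lowest of Hoxd3 and Hoxd4. Hoxd9 took between 40.8% and 45.1% of the Hoxd reads with TSA and 35.9% and 45.8% with NaB. Hoxd1 took between 14.1% and 25.5% with TSA and 13.4% and 14.5% with NaB, Hoxd10 between 10.8% and 14.1% and 9.95% and 15.8%, Hoxd4 between 7.84% and 18.7% and 7.96% and 15.8%, and Hoxd3 between 1.96% and 5.24% and 2.99% and 3.42%. For these 5 genes the ranges of the drugs overlapped. No background over all genes exists for this measure, and 5 libraries are few for such a count.

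For Hoxd8 they did not. Its share was 9.95% (95% exact binomial interval 6.10 to 15.1), 8.82% (4.11 to 16.1) and 5.56% (2.81 to 9.72) in TSA libraries 1, 2 and 3, and 19.9% (14.6 to 26.1) and 14.5% (10.3 to 19.7) in NaB libraries 1 and 2. The intervals of TSA libraries 1 and 2 each overlap those of both NaB libraries, and only the interval of TSA library 3 lies below both. A two-sided exact permutation test over the libraries gave p = 0.2 for Hoxd8, which is the smallest p that 10 arrangements of 3 against 2 libraries allow, and p = 1 after Benjamini-Hochberg adjustment over the 6 genes.

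**Figure D2:**
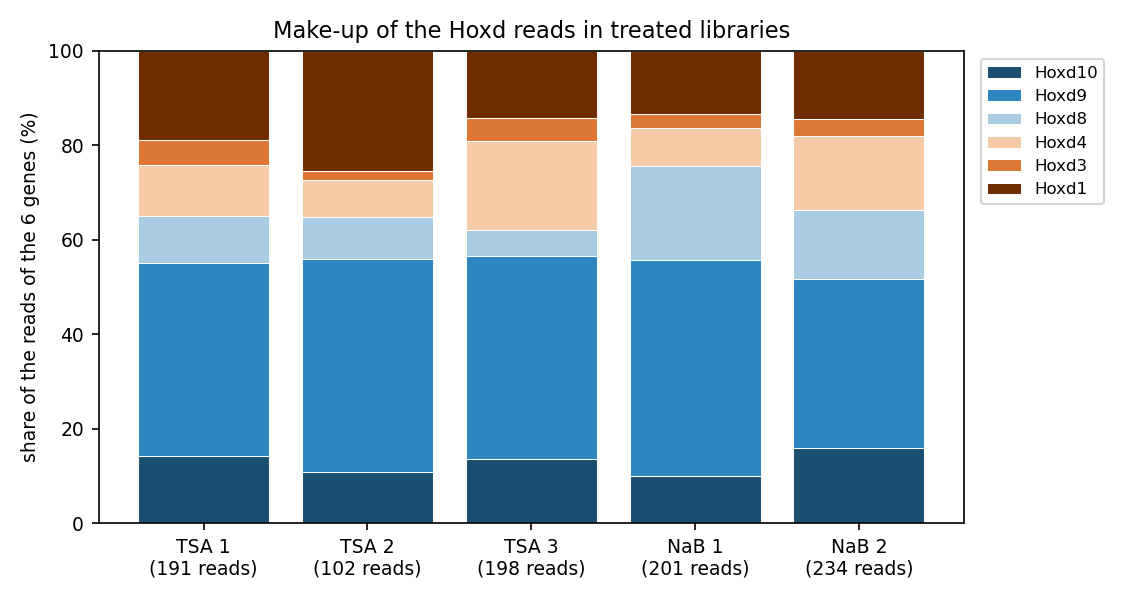
Share (%, vertical axis) of each Hoxd gene in the reads of the 6 genes, stacked from Hoxd10 at the bottom to Hoxd1 at the top, for the 3 TSA and 2 NaB libraries (horizontal axis, with the number of Hoxd reads). Hoxd9 takes 35.9% to 45.8% in every library, and the Hoxd8 segment is 5.56% to 9.95% with TSA and 14.5% and 19.9% with NaB.

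The difference between the drugs was taken as the log2 change with NaB minus the log2 change with TSA. It was not itself used in the choice of the genes, but it is made from both changes that were. It was tested with limma in the fit over all genes, where the Hoxd genes passed the filter through the treated libraries alone. The p-values below are therefore not an independent test. None of the 5 Hoxd genes tested passed (0 of 5, with 0 at an unadjusted p below 0.05, 0 by edgeR and 0 by DESeq2, which gave an adjusted p for Hoxd9 alone), beside 0.299% of all tested genes. The estimate for Hoxd8 was 1.00 (95% interval -0.56 to 2.57, adjusted p = 0.602) and that for Hoxd4 1.08 (-1.02 to 3.19, adjusted p = 0.687; limma, Benjamini-Hochberg). For Hoxd10 the difference was 0.44 (-1.21 to 2.10), for Hoxd1 -0.46 (-1.86 to 0.93) and for Hoxd9 -0.78 (-2.66 to 1.11), with adjusted p of 0.855, 0.813 and 0.758 (limma). Hoxd3, fitted without the filter on low counts, had a difference of 0.17 (-1.57 to 1.91). All 6 intervals include 0, and each also includes differences of more than 0.5 in both directions, so that equal effects were not shown.

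These estimates rest in part on single control reads and on single treated libraries. Hoxd10 went to 0.0020 without NaB library 2 and to 0.88 without NaB library 1. Over the 19 fits tried, the difference ranged from -0.86 to 1.52 for Hoxd8, from -3.81 to 0.40 for Hoxd9, from -2.33 to 0.05 for Hoxd1, from 0.0020 to 0.88 for Hoxd10 and from 0.40 to 3.02 for Hoxd4, and the smallest adjusted p of any gene in any fit was 0.134, for Hoxd8 with all 5 controls as 1 group (limma). With the replicate block the adjusted p of Hoxd8 was 0.541 (limma). The block moved the genes of the whole table called for this difference from 4 higher and 43 lower to 113 and 291. In untreated cultures of the projects each gene had 0 to 4 reads in a library, too few to show a difference between the projects. By limma, 0 of the 5 genes tested were called, with 0 at an unadjusted p below 0.05, beside 1.55% of all tested genes. With edgeR and DESeq2 it was also 0. Since these genes passed the filter through the treated libraries alone, nothing is read from these counts.

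**Figure D3:**
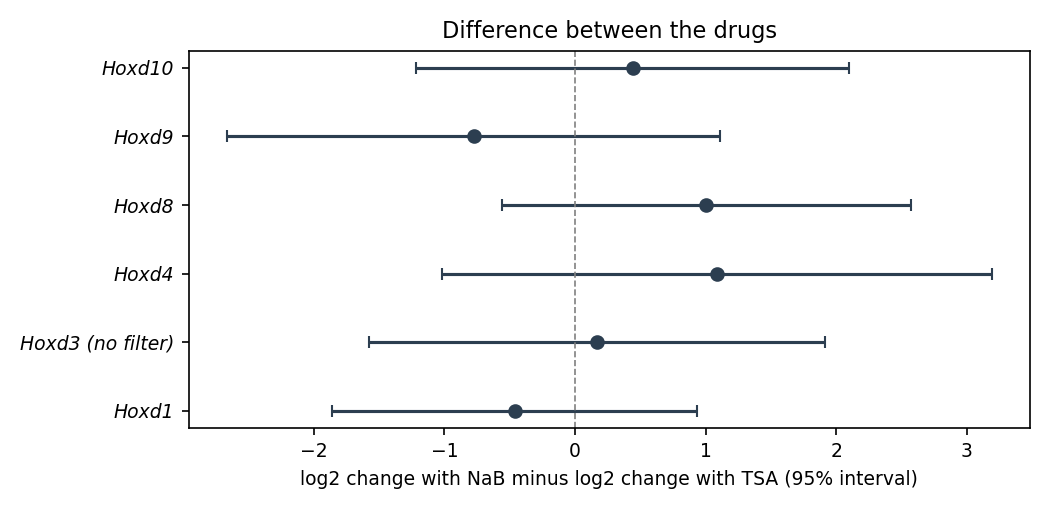
Log2 change with NaB minus log2 change with TSA (horizontal axis) for each of the 6 genes, with 95% intervals from limma on log2(normalized count + 1). Hoxd3 comes from the fit without the filter on low counts. All 6 intervals cross 0, and the estimates run from -0.78 for Hoxd9 to 1.08 for Hoxd4.

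Next, the rows around the 6 genes were examined, as these were not part of the choice. In the RefSeq order Hoxd11, Hoxd12, Hoxd13 and Evx2 come before Hoxd10, so the rows on that side may include posterior genes of the cluster, and no row was given a name by its place. The table lists genes in the order of the chromosomes: of 1830 consecutive pairs of named genes, 98.5% were on the same chromosome, and 95.6% of these were in rising position. The 6 Hoxd genes span 10 rows. Of the 4 unnamed rows between them, 3 had no read in any library, and the fourth, between Hoxd3 and Hoxd1, had 3, 0 and 2 reads with TSA, 2 and 0 with NaB and none in the controls. Of the 25 rows on each side, 24 of 50 had enough reads to be tested and 10 had none in any library. With TSA, 6 of the 24 were called up and 2 down, and with NaB also 6 and 2 (33.3% in each comparison; limma, Benjamini-Hochberg), beside 42.3% and 41.5% of all tested genes called in either direction. With library totals as the scaling, these counts were 9 up and 1 down with TSA and 7 up and 1 down with NaB. The replicate block gave 7 up and 2 down with TSA and 7 up and 3 down with NaB. The 6 rows called up with NaB became 2 without NaB control 2 and 2 without NaB library 2, and 4 with DESeq2. The median log2 change of the 24 rows was 0.07 with TSA and 0.08 with NaB, and that of all tested genes was 0.02 in each. Of the 24, 3 were called up with both drugs, 2 down with both and 13 with neither.

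The row directly after Hoxd1 had 552 normalized counts on average in the controls for TSA and 521 with TSA, a log2 change of -0.08 (95% interval -0.28 to 0.11, adjusted p = 0.435), and its log2 change with NaB was -0.11 (-0.36 to 0.13, adjusted p = 0.403; limma). On the other side, the nearest row with enough reads was 7 rows before Hoxd10, with log2 changes of -0.19 with TSA (-0.38 to 0.01, adjusted p = 0.0860) and -0.24 with NaB (-0.47 to -0.0039, adjusted p = 0.0803; limma). Neither row was called, and their intervals were narrower than those of the Hoxd genes.

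Of the flanking rows called, 2 had a symbol. Symbols came from a table of genes upregulated in these data, so that naming them selected for a rise and no p is given. Chrna1 (ENSRNOG00000018286), the gene of a subunit of the muscle acetylcholine receptor, had log2 changes of 1.91 with TSA and 1.52 with NaB. Cyct (ENSRNOG00000024457), which encodes the cytochrome c of the testis, had log2 changes of 1.07 and 0.31. Without a symbol, ENSRNOG00000052519 rose with both drugs by 0.82 and 0.81, and ENSRNOG00000018485 by 0.63 and 0.51. Another row without a symbol rose with both, by 0.75 and 0.58, and 4 more were called up with 1 drug. The largest change of a flanking row was a fall, that of ENSRNOG00000018406, from 1467 to 254 normalized counts with TSA, a log2 change of -2.51 (adjusted p = 1.18e-06), and its log2 change with NaB was -2.29 (adjusted p = 1.14e-05; limma). ENSRNOG00000052968 fell by 0.63 with TSA and 0.57 with NaB.

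Of the 4 rows directly before Hoxd10, singled out after their values were seen, 1 had no read in any library and 3 had few. Their summed reads were 0, 0 and 0 in the controls for TSA and 7, 2 and 9 with TSA, while in the NaB project the controls held 1 and 0 reads and the NaB libraries 6 and 13. The treated libraries together held 37 reads and the controls 1, and TSA library 2 was again the lowest TSA library. Of the 3 rows with reads, the row 4 before Hoxd10 had 1, 1 and 1 reads with TSA, 3 and 5 with NaB and none in the controls, and the other 2 were at 0 in some treated libraries. With TSA that row stayed under the limit of 3 reads in every library. All 4 rows were below the filter on low counts, and none carried a symbol.

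**Figure D4:**
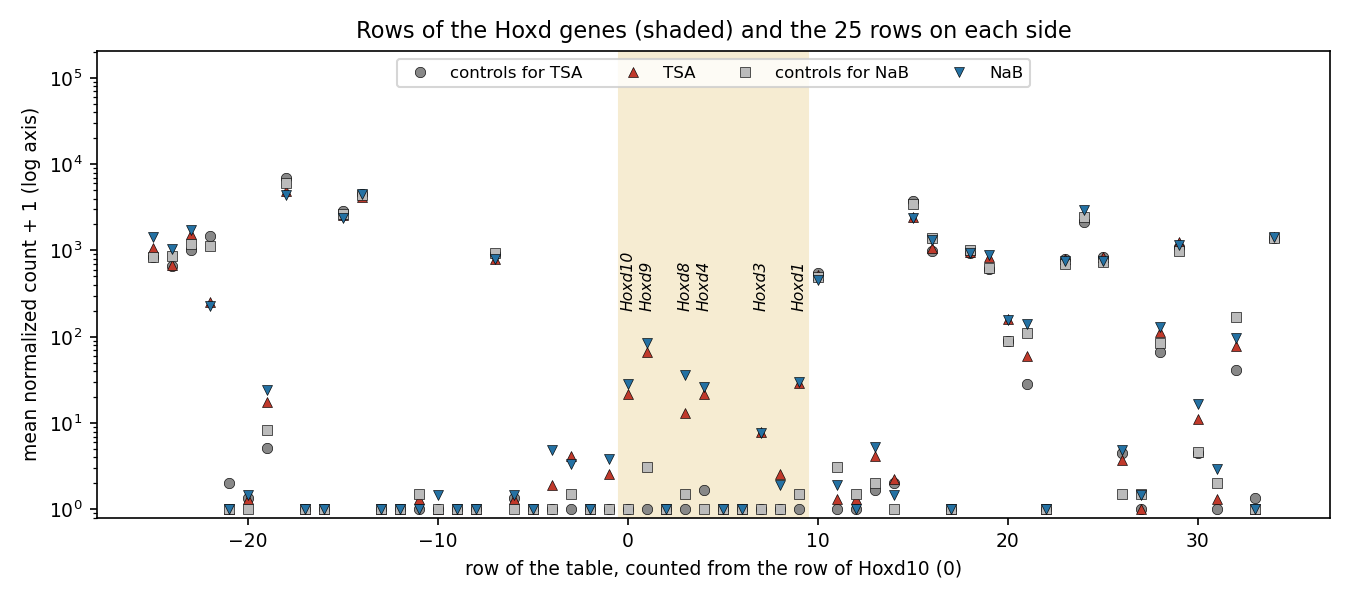
Mean normalized count + 1 (log axis) in each of the 4 groups for the rows from Hoxd10 to Hoxd1 (shaded) and the 25 rows on each side, by row number counted from Hoxd10 at 0. Inside the shaded part the treated groups stand above the controls at the 6 Hoxd genes, while at row 10, directly after Hoxd1, the 4 groups lie close together, at 552 and 521 for the controls for TSA and TSA.

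Of 30 Hox genes of the other clusters, 6 could be paired with an identifier, through the same table, so their direction was given by that choice. Hoxc4, of the anterior part of the Hoxc cluster, was at 0 in all 5 controls and at 51.6, 28.0 and 62.2 normalized counts in TSA libraries 1, 2 and 3 and 51.0 and 52.1 with NaB. Hoxc10, the paralog of Hoxd10 and like it a gene of the lumbar spinal cord, was at 27.6 ± 4.38 (SD, n = 3) with TSA and 43.5 ± 10.7 (SD, n = 2) with NaB. Hoxb13 and Hoxc13, the most posterior genes of their clusters, were at 121 ± 57.0 (SD, n = 3) and 27.6 ± 5.99 (SD, n = 3) with TSA. Hoxc8 and Hoxc6 had few reads, as Hoxd3 did, with 8.77 ± 2.08 (SD, n = 3) and 2.80 ± 0.907 (SD, n = 3) normalized counts with TSA. TSA library 2 was the lowest TSA library for 4 of these 6 genes.

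Since Hox genes are known from spinal cord and hindbrain, markers of the motor neurons found there were read in the same libraries. Of 6 such markers, 3 could be paired, Mnx1, Isl2 and Lhx3, again through the table of upregulated genes, so their rise was fixed by that choice and no p is given. Their summed normalized counts were 68.6, 50.5 and 44.8 in the controls for TSA and 435, 233 and 393 with TSA. In the NaB project the sums were 36.2 and 38.6 in the controls and 359 and 309 with NaB. The most abundant of them, Isl2, a LIM homeodomain factor, was at 15.8 ± 8.39 (SD, n = 3) in the controls for TSA and 225 ± 72.1 (SD, n = 3) with the drug, a log2 change of 3.81, and its log2 change with NaB was 3.50. Lhx3 and Isl2 were counted in untreated cultures, where the Hoxd genes were at or near 0, and 2 of the 3 markers were lowest in TSA library 2. The part of such cells in the rise of the Hoxd genes was not tested. No identifier could be paired with the listed markers of neurons, forebrain, astrocytes, oligodendrocytes or microglia, so the labelled tissue could not be checked against them here.

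Among the regulators of Hox genes on the lists, few could be paired, and only through the table of upregulated genes, so that no count of directions can be read from them and, here and for retinoic acid, axial and vascular genes, no p is given. Of 30 Polycomb genes 2 were paired. Cbx7, a subunit that binds methylated histone H3 in Polycomb repressive complexes, was at 147 ± 7.49 (SD, n = 3) in the controls for TSA and 657 ± 48.8 (SD, n = 3) with the drug, a log2 change of 2.16, and its log2 change with NaB was 2.21. Pcgf5, a subunit of another Polycomb complex, had log2 changes of 1.22 with TSA and 0.99 with NaB.

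Retinoic acid is known to activate the anterior Hox genes, and 3 of 16 genes of its pathway were paired. Aldh1a2, the enzyme that makes retinoic acid in the embryo, was at 8.13 ± 6.96 (SD, n = 3) in the controls for TSA and at 2.59 ± 3.66 (SD, n = 2) in those for NaB, and at 103 ± 24.7 (SD, n = 3) with TSA and 63.1 ± 10.3 (SD, n = 2) with NaB (log2 changes of 3.92 and 4.68). Cyp26b1, which degrades retinoic acid, had log2 changes of 1.42 and 1.48, and Aldh1a1, another enzyme of retinoic acid synthesis, of 1.14 and 1.99. Aldh1a1 was at 43.0 ± 12.6 (SD, n = 3) in the controls for TSA and 142 ± 22.2 (SD, n = 2) in those for NaB. With TSA it was at 111 ± 81.2 (SD, n = 3), with 224 of its 362 reads in 1 library. For Aldh1a1 limma called only the change with NaB, and the study saw no effect of the inhibitors by quantitative PCR. Cdx2, an activator of posterior Hox genes and the only one of 5 axial factors paired, had no read in any control and 17 reads in the 3 TSA and 13 in the 2 NaB libraries, below the filter. Of 4 endothelial and 4 fibroblast and pericyte markers, 1 each was paired. Flt1, an endothelial receptor, had log2 changes of 4.90 with TSA and 4.04 with NaB. Col1a1, a collagen of fibroblasts, was at 779 ± 675 (SD, n = 3) in the controls for TSA and 791 ± 92.0 (SD, n = 3) with TSA, and at 143 ± 8.70 (SD, n = 2) in the controls for NaB and 919 ± 60.2 (SD, n = 2) with NaB, log2 changes of 1.00 and 2.68. The controls for TSA were spread widely for Col1a1, with 1293 of their 2201 reads in 1 library. Its log2 change of 1.00 thus stood beside nearly equal means, and limma called neither of its changes. The part of endothelial cells, fibroblasts and pericytes in the Hoxd values was not tested. No identifier was paired for the Hox cofactors, the trithorax group genes or the HDAC genes.

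The genes whose pattern over the 10 libraries was most like that of the summed Hoxd genes, by Pearson's r of log2(normalized count + 1) among 1821 named genes other than Hox genes, were Rab3c (0.997), Crispld2 (0.996), Ripply3 (0.994), Fam221a (0.994) and Atp23 (0.993). The named genes come from the table of upregulated genes, so that likeness to a rise was built into the pool, and 1 tested gene without a symbol ranked above the fifth of these. The measure rests mainly on the step from control to treated libraries, which many genes share, as 2226 of all tested genes (14.2%) had an r of 0.9 or more. Rab3c, a GTPase of secretory vesicles, was already at 1072 ± 60.9 (SD, n = 3) normalized counts in the controls for TSA and at 3207 ± 353 (SD, n = 3) with TSA. Ripply3, a transcriptional repressor of the embryo, started near 0 like the Hoxd genes, at 1.05 ± 1.05 (SD, n = 3), and reached 45.6 ± 14.3 (SD, n = 3) with TSA and 51.5 ± 7.37 (SD, n = 2) with NaB.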

How the data were processed

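The study used RNA from 10 cultures and, per the labels, paired-end sequencing. The authors mapped reads to Rnor_6.0 with STAR 2.7.9a, counted them with featureCounts 2.0.1 and divided the counts by DESeq2 1.29 median-of-ratios size factors; the deposited signal is these normalized counts. The strand setting is not given in the sources used here, so reads of overlapping and antisense genes in the cluster cannot be told apart. The smallest value above 0 in a library was taken as 1 read, which gave whole reads (tolerance 0.01) for 100% of values.

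Of 32883 genes, 15717 passed edgeR's filterByExpr (minimum count 10). limma 3.58.1 (R 4.3.3) was fitted with a trend to log2(normalized count + 1) over 4 groups, two-sided, with Benjamini-Hochberg adjustment over all tested genes. Fold changes on this scale understate changes of low genes. Folds of Hoxd genes against groups without a read were set against 3 reads per library. Where the controls held a read, the ratio of summed reads, scaled by the size factors of the libraries, is given with its exact counting interval. On simulated data with 100 genes changed per fold size among 15717 genes, limma called 80 of the genes changed by 1 on the log2 scale and 94 of those changed by 2 for TSA, and 70 and 91 for NaB, with 10 and 16 false calls.

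The genes and lists were chosen with earlier results of these data known. The rule named the 6 Hoxd genes, the nearest and the called neighbours (of those without a symbol, at most 2 in each direction by identifier), the list genes and the 5 named genes most alike. Symbols came from the identifier columns of a supplemental table of upregulated genes (1911 identifiers), which paired 17 of 158 list genes. Planned counts of list genes by direction are therefore not given or used, and neighbours were taken by row order, a choice made after seeing the data. The table's columns of fold changes and p-values were not used. Each control and treated culture of a pair shared a plate. Deviations from the group means correlated within the TSA pairs (r = 0.284, 0.392 and 0.314) and, with pairs taken from consecutive library names, within the NaB pairs (0.342). Whether the replicates came from separate animals is not stated, so p-values measure the spread between these cultures. Alternatives were DESeq2 1.42.0, edgeR 4.0.16 with TMM, library totals, no filter, pseudocounts of 0.5 and 5, each project alone, the replicate block, all 5 controls as 1 group and each library left out.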

Additional observations from a re-analysis of the deposited data

How the results depend on the processing

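A control level of 1 read in place of 3 multiplies each lower bound by 3, to at least 62.6-fold for Hoxd9 with TSA. The sign of the difference between the drugs turned in 5 cases, none past a threshold: Hoxd9 to 0.40 with all 5 controls as 1 group and to 0.40 without NaB control 1, Hoxd8 to -0.86 with edgeR, and Hoxd1 to 0.052 with all 5 controls as 1 group and to 0.052 without NaB control 2. Leaving out 1 library gave -1.96 to 0.40 for Hoxd9, -0.98 to 0.052 for Hoxd1, 0.0020 to 0.88 for Hoxd10, 0.49 to 1.68 for Hoxd4 and 0.49 to 1.52 for Hoxd8. The left-out libraries hold the only control reads of Hoxd9 and Hoxd1, and the cause for Hoxd8 was not tested.

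Over all genes, those called for the difference between the drugs numbered 4 higher and 43 lower. They were 48 and 207 with DESeq2, 113 and 291 with the replicate block, and 64 and 358 with all 5 controls as 1 group. Library totals gave 67 lower and the fit without a filter 0 higher. Leaving out 1 library gave 0 to 7 higher and 1 to 41 lower. The causes were not tested. Of the flanking rows, 1 in place of 2 was called down with TSA and 1 in place of 2 with NaB under library totals. Leaving out 1 library gave 2 to 7 rows called up with NaB, and the 2 came without NaB control 2 and without NaB library 2. With library totals 68.3% of the genes called with TSA were up, against 53.3%, and the median log2 change of all genes was 0.20 against 0.02. The replicate block called no Hoxd gene for the difference between the drugs. With 2 to 3 libraries per group and 14 to 209 reads per gene, differences between the drugs that lie inside the intervals given are not excluded. The smallest difference between the drugs that could be called was not tested.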
